A study of Mus musculus with 24 samples.

Results

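The genes described here are 10 markers of endoderm, the germ layer of gut, liver and yolk sac, in mouse cultures that were steered towards neurons. They are Gata4, Gata6, Sox17, Dab2, Hnf4a, Ttr, Apoa1, Afp, Foxa1 and Foxa2, and they were taken by symbol from the expression table, 10 of 21553 genes with counts. Poly(A)+ RNA had been sequenced from WT embryonic stem cells (ESCs, line E14) and from slow/slow cells, a derivative of E14 made by 2 rounds of gene targeting, in which both alleles of Polr2a carry R749H, a substitution in the catalytic subunit of RNA polymerase II that slows elongation. Each genotype was sampled in 3 replicates at 4 stages, which were ESCs kept in 2i medium, neural progenitor cells (NPCs) at day 7 in N2B27 medium, cells purified on beads at day 10 for the polysialylated surface protein PSA-NCAM (PSA-NCAM+ cells), and neurons replated at day 7 and collected 14 days later. The differentiating cultures had been started at different densities, 10000 WT and 30000 slow/slow cells per cm2. Genotype and initial density therefore cannot be told apart in NPCs, PSA-NCAM+ cells and neurons, and no such density is given for ESCs. No clone is named for the samples, so that genotype and differences between the cell lines cannot be told apart at any stage. The comparisons ask at which stage, and in which genotype, RNA of non-neural cells was present.

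In the early mouse embryo, Gata6 and then Gata4 and Sox17, which encode DNA-binding proteins, mark the primitive endoderm, the layer that gives rise to the visceral and parietal endoderm of the yolk sac. Visceral endoderm takes up maternal protein through endocytic receptors served by the adaptor Dab2, and under Hnf4a it secretes plasma proteins such as Afp (alpha-fetoprotein), Apoa1 (the main protein of high-density lipoprotein) and Ttr (transthyretin, a carrier of thyroid hormone), which the liver makes later. Foxa1 and Foxa2 encode forkhead factors that open chromatin in the endoderm, but both are also expressed in the floor plate and in ventral midbrain progenitors of the neural tube, and Ttr is abundant in the choroid plexus of the brain. An endoderm marker in a neural culture is therefore not always an endoderm cell.

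Total counts ranged from 32974432 to 104466886 per sample, and the values below are CPM, counts scaled by library size with TMM factors. In these bulk cultures, fewer cells of a type and less RNA per cell cannot be told apart. The stage labels were checked against marker lists. The summed level of 6 pluripotency genes was 7175 to 7456 CPM in WT ESCs, 2160.4 to 2230.0 CPM in WT NPCs and 104 to 132 CPM in WT neurons. The summed level of 9 neural genes was 76.7 to 79.9 CPM in WT NPCs, no higher than the 77.1 to 85.8 CPM of WT ESCs, against 236 to 297 CPM in slow/slow NPCs and 3744 to 3936 CPM in WT neurons. Gene by gene, 5 of the 9 were called higher and 2 lower in WT NPCs than in ESCs, with a median log2 change of 1.16. Over all tested genes 34% were called higher and 31.6% lower. The summed level was carried by a few abundant genes, among them Tubb3, which had a mean of 40.9 CPM in WT ESCs and 15.8 CPM in WT NPCs. Slow/slow neurons held 3359.6 to 3627 CPM of the list. In WT PSA-NCAM+ cells the pluripotency genes summed to 1471 to 2001 CPM and the neural genes to 124 to 166 CPM. In slow/slow PSA-NCAM+ cells the sums were 727 to 756 CPM and 338 to 630 CPM. The first PSA-NCAM+ replicate of each genotype stood apart from the other two, with a mean absolute log2 deviation of 0.32 in WT and 0.45 in slow/slow cells against 0.088 to 0.28 in the other 22 libraries. Calls of the 10 members in PSA-NCAM+ cells are given with and without this pair, and those of the other gene lists only with it. Changes are log2 fold changes with their standard error (SE) and an adjusted p from edgeR's quasi-likelihood test over all 16627 genes that passed the filter on low counts, all 10 members among them, and a gene was called at an adjusted p under 0.05.

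Afp and Apoa1 followed each other more closely over the samples than any other pair of members, and the bases before their starts are shown for that reason. Afp lies on chromosome 5 (90490737 to 90508907, plus strand, GRCm38) and Apoa1 on chromosome 9 (46228580 to 46230466, plus strand). The bases are from RefSeq promoter windows on GRCm38.p6, plus strand, chr5:90490464-90490713 for Afp (250 bases) and chr9:46228380-46228579 for Apoa1 (200 bases). RefSeq's Apoa1 window runs further and was cut here to end before the gene start given above. Capitals mark the forkhead motif TGTTTGC, the HNF1 site motif GTTAAT and the TATA box TATAAA.
Afp: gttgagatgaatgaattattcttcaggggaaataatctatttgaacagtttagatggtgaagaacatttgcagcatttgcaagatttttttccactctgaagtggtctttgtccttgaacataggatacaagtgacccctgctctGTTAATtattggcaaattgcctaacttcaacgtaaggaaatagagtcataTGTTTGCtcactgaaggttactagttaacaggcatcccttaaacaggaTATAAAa
Apoa1: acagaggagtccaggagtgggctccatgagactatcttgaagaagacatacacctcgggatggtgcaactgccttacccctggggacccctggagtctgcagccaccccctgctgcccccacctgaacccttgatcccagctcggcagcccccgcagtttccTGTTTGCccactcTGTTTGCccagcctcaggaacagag
On both strands, the forkhead motif occurred in the Afp window 1 time and in the Apoa1 window 2 times, and in 4.3% of all 32851 RefSeq promoter windows cut to 250 bases and 3.55% of those cut to 200. At least 2 matches occurred in 0.131% of windows cut to 200 bases. The HNF1 motif GTTAAT occurred 1 time in the Afp window and in 6.43% of windows of that length, and TATAAA 1 time in the Afp window and in 12.4%. Other forms of an HNF1 site were not searched, so the window may hold more than the capitals mark. Another forkhead motif, TGTTTAC, was searched too and had no match in either window, nor did the GATA motif AGATAA. The same held for its variant form TGATAA. None of the matches overlapped. These are matches of letters, and binding was not measured.

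The NPC cultures held more RNA of most endoderm genes than ESCs. In WT cells 7 members were higher in NPCs than in ESCs and 0 lower, where 65.6% of all tested genes were called, 34% higher and 31.6% lower. In slow/slow cells 10 were higher and 0 lower, where 62.3% were called, 33.9% higher and 28.4% lower. The median log2 change of the members was 3.36 in WT and 5.16 in slow/slow cells, against 0.03 and 0.04 over all genes. The highest CPM of Gata4, Gata6, Sox17 and Dab2 was thus found in the day 7 cultures or, for Gata6, at much the same level in WT PSA-NCAM+ cells, and not in the neurons. The plot of CPM by sample shows these profiles.

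**Figure D1:**
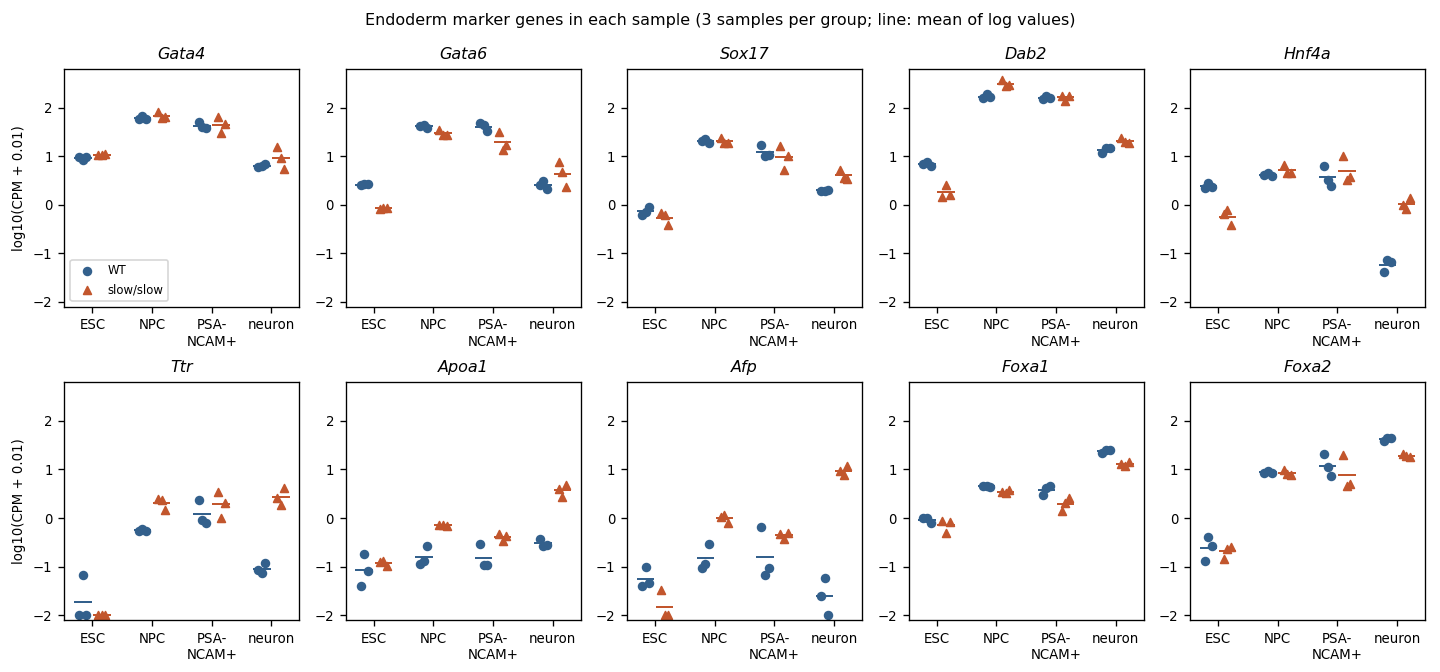
CPM of the 10 genes in each of the 24 samples, on a log10 scale with 0.01 added (vertical axis), by stage (horizontal axis), with WT as blue circles and slow/slow as orange triangles and a line at the mean of the log values. Gata4, Gata6, Sox17 and Dab2 peaked in NPCs and PSA-NCAM+ cells, Afp and Apoa1 were highest in slow/slow neurons, and Foxa1 and Foxa2 were highest in WT neurons.

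Gata4 (ENSMUSG00000021944, chromosome 14, 63198922 to 63271692, minus strand), a zinc-finger factor of primitive endoderm and heart, had 9.51, 8.35 and 9.86 CPM in the 3 WT ESC samples and 10.8, 10.5 and 11.3 CPM in slow/slow ESCs. In NPCs it reached 59.0, 66.3 and 57.5 CPM in WT against 79.6, 60.2 and 65.6 CPM in slow/slow cells. It rose from ESCs to NPCs by 2.72 ± 0.27 in WT (adjusted p = 3.67e-08) and 2.66 ± 0.27 in slow/slow cells (adjusted p = 4.45e-08). The genotypes overlapped in NPCs, and Gata4 was already present in ESCs of both. In neurons it had 5.99, 6.21 and 7.00 CPM in WT against 15.6, 9.31 and 5.43 CPM in slow/slow cells. Gata4 was called higher in slow/slow neurons (0.67 ± 0.26, adjusted p = 0.038), but the third slow/slow sample lay below every WT sample, and 5 of the 6 fits that left out a neuron sample did not call it (log2 change 0.21 to 0.95): each WT replicate in turn and slow/slow replicates 1 and 2.

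Gata6 (ENSMUSG00000005836, chromosome 18, plus strand), which specifies primitive endoderm, was lower in slow/slow ESCs. It had 2.52, 2.61 and 2.62 CPM in WT against 0.79, 0.86 and 0.87 CPM in slow/slow ESCs, a log2 change of -1.62 ± 0.38 (adjusted p = 0.00174). In NPCs it had 42.6, 44.2 and 38.1 CPM in WT against 34.0, 27.3 and 27.6 CPM in slow/slow cells. No slow/slow sample reached a WT sample in ESCs or NPCs, but the NPC difference was not called (-0.49 ± 0.30, adjusted p = 0.167), although it was when only NPC samples were fitted (-0.51, adjusted p = 7.29e-05). In neurons Gata6 had 2.58, 3.03 and 2.08 CPM in WT against 7.77, 4.62 and 2.27 CPM in slow/slow cells. It was called higher there (0.96 ± 0.32, adjusted p = 0.016), with the third slow/slow sample again inside the WT range. The call was lost without WT neuron replicate 3 or slow/slow neuron replicate 1, where the log2 change was 0.46 at the lowest.

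Sox17 (ENSMUSG00000025902, chromosome 1, 4490931 to 4497354, minus strand), an HMG-box factor of primitive and definitive endoderm, was low in ESCs. It had 0.59, 0.72 and 0.90 CPM in WT against 0.68, 0.59 and 0.37 CPM in slow/slow ESCs. In NPCs it had 20.5, 22.2 and 19.0 CPM in WT against 23.9, 18.6 and 18.4 CPM in slow/slow cells, a genotype difference of -0.01 ± 0.28 (adjusted p = 0.975). The rise to NPCs was 4.80 ± 0.35 in WT (adjusted p = 3.96e-10) and 5.18 ± 0.37 in slow/slow cells (adjusted p = 1.79e-10). In neurons every slow/slow sample lay above every WT sample, with 1.92, 1.96 and 2.05 CPM in WT against 5.27, 3.54 and 3.45 CPM in slow/slow cells (1.05 ± 0.30, adjusted p = 0.00645). Sox17 and Gata6 each overlap a non-coding gene on the other strand, and whether counting used the strand is not given in the sources used here.

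Dab2 (ENSMUSG00000022150, chromosome 15, 6299788 to 6440712, plus strand), the endocytic adaptor of visceral endoderm, was the member with the highest level per length in NPCs, at an authors' mean of 38.1 RPKM in WT and 67.7 RPKM in slow/slow cells. In ESCs it had 6.97, 7.57 and 6.31 CPM in WT against 1.45, 2.60 and 1.55 CPM in slow/slow cells, lower in every slow/slow sample (-1.87 ± 0.19, adjusted p = 2.29e-07). In NPCs the order was turned round. Dab2 had 158, 187 and 162 CPM in WT against 367, 275 and 287 CPM in slow/slow cells (0.87 ± 0.16, adjusted p = 8.97e-05). The difference between the stages was itself called, with an interaction of 2.75 ± 0.25 (adjusted p = 2.01e-07). Over all tested genes of chromosome 15 the median log2 change was -0.60 in ESCs, -0.57 in NPCs and -0.56 in PSA-NCAM+ cells and -0.08 in neurons, against -0.14 to 0.15 on the chromosomes of the other members, and the part of this in the Dab2 differences was not tested. In neurons Dab2 had 11.6, 14.7 and 15.0 CPM in WT against 24.2, 19.8 and 18.5 CPM in slow/slow cells, again higher in every slow/slow sample (0.60 ± 0.16, adjusted p = 0.00367). An antisense gene and a pseudogene lie within Dab2 on the other strand.

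Hnf4a (ENSMUSG00000017950, chromosome 2, 163506808 to 163572910, plus strand), the nuclear receptor that drives plasma protein genes in visceral endoderm and liver, changed sides between ESCs and neurons. It had 2.22, 2.78 and 2.28 CPM in WT against 0.63, 0.76 and 0.37 CPM in slow/slow ESCs (-2.01 ± 0.43, adjusted p = 0.000799). In NPCs the genotypes overlapped, with 4.04, 4.59 and 3.88 CPM in WT against 6.46, 4.58 and 4.51 CPM in slow/slow cells (0.32 ± 0.37, adjusted p = 0.482). The rise from ESCs to NPCs was called in slow/slow cells (3.11 ± 0.43, adjusted p = 2.63e-06) and not in WT cells (adjusted p = 0.0745), and it differed between them by 2.33 ± 0.56 (adjusted p = 0.00493). In neurons WT samples had 2, 4 and 6 counts, or 0.031, 0.064 and 0.058 CPM, and slow/slow samples 0.98, 0.81 and 1.34 CPM (4.26 ± 0.56, adjusted p = 2.92e-06). Hnf4a was nearly undetected in WT neurons and remained at a low level in slow/slow neurons. An antisense gene and an snRNA gene overlap Hnf4a.

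Ttr (ENSMUSG00000061808, chromosome 18, plus strand) was not detected in slow/slow ESCs, at 0 counts in each sample, which allows up to 0.061 to 0.093 CPM, and had 0, 2 and 0 counts in WT ESCs. In NPCs it had 0.52, 0.57 and 0.54 CPM in WT against 2.42, 2.31 and 1.45 CPM in slow/slow cells (1.92 ± 0.50, adjusted p = 0.0031). Slow/slow NPCs were thus at least 27.9-fold higher than slow/slow ESCs, against 3 counts per library. In neurons Ttr had 0.077, 0.064 and 0.106 CPM in WT against 2.58, 1.82 and 4.17 CPM in slow/slow cells (5.02 ± 0.60, adjusted p = 1.8e-06). Every slow/slow sample lay above every WT sample in NPCs and in neurons, and the neurons differed by more than the NPCs, by 3.10 ± 0.78 (adjusted p = 0.00251, interaction). Ttr fell from NPCs to neurons in WT cells (-2.65 ± 0.62, adjusted p = 0.000737), whereas in slow/slow cells the 2 stages overlapped.

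Apoa1 (ENSMUSG00000032083), whose window is printed above, had 2 to 6 counts per ESC sample in both genotypes. In NPCs it had 0.104, 0.121 and 0.255 CPM in WT against 0.725, 0.716 and 0.665 CPM in slow/slow cells (2.09 ± 0.41, adjusted p = 0.000231). In neurons it had 0.37, 0.26 and 0.27 CPM in WT against 3.89, 2.74 and 4.82 CPM in slow/slow cells (3.67 ± 0.37, adjusted p = 1.03e-07). The slow/slow samples lay above the WT samples at both stages. From NPCs to neurons Apoa1 rose in slow/slow cells (2.43 ± 0.35, adjusted p = 2.77e-06) and was not called in WT cells (adjusted p = 0.0699), with an interaction of 1.58 ± 0.55 (adjusted p = 0.0208).

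Afp (ENSMUSG00000054932) showed the widest separation of all members. ESCs held 2, 3 and 2 counts in WT and 1, 0 and 0 counts in slow/slow cells, at or under the floor of 3 counts, so that no fold is given. In NPCs Afp had 4, 7 and 19 counts in WT, or 0.083, 0.106 and 0.285 CPM, and 1.02, 1.12 and 0.789 CPM in slow/slow cells (2.57 ± 0.60, adjusted p = 0.00124). In neurons it had 1, 3 and 0 counts in WT and 615, 629 and 431 counts in slow/slow cells, or 9.16, 7.83 and 11.8 CPM. The WT neuron samples were at the floor and all 3 slow/slow samples were far from it. The ratio of the summed counts, scaled by library, was 527 (exact 95% interval 205 to 1935, counting error only), and the difference was called (adjusted p = 1.52e-08). From NPCs to neurons Afp rose by 3.29 ± 0.52 in slow/slow cells (adjusted p = 9.15e-06) and fell in WT cells (adjusted p = 0.00742), although the WT counts were low at both stages and the call was lost without WT NPC replicate 3. An antisense gene overlaps Afp.

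Foxa1 (ENSMUSG00000035451, chromosome 12, 57540628 to 57546916, minus strand) and Foxa2 (ENSMUSG00000037025, chromosome 2, 148042877 to 148046969, minus strand) went the other way and were highest in WT neurons. Foxa1 had 4.49, 4.60 and 4.26 CPM in WT against 3.42, 3.25 and 3.70 CPM in slow/slow NPCs, and 21.8, 25.4 and 25.2 CPM in WT against 12.7, 12 and 14.2 CPM in slow/slow neurons. Foxa2 had 8.42, 9.18 and 8.44 CPM in WT against 9.69, 7.90 and 7.69 CPM in slow/slow NPCs, and 38.2, 44.8 and 45.4 CPM in WT against 20.5, 19.1 and 18.4 CPM in slow/slow neurons. Every slow/slow neuron sample lay below every WT neuron sample for both genes (Foxa1 -0.90 ± 0.19, adjusted p = 0.000676, and Foxa2 -1.15 ± 0.40, adjusted p = 0.0223). The Foxa2 call was lost in 4 of the 6 fits that left out a neuron sample (WT replicate 2 or 3, slow/slow replicate 2 or 3; adjusted p up to 0.0619), while its log2 change stayed between -1.23 and -1.11. Both rose from NPCs to neurons in WT cells (Foxa1 2.44 ± 0.21, adjusted p = 7.79e-10, Foxa2 2.30 ± 0.42, adjusted p = 4.36e-05) and in slow/slow cells (Foxa1 1.91 ± 0.20, adjusted p = 4.75e-08, Foxa2 1.19 ± 0.41, adjusted p = 0.0128). Per length, Foxa2 was the most abundant member in neurons of either genotype, at an authors' mean of 19.99 RPKM in WT and 9.90 RPKM in slow/slow neurons, where Afp stood at 0.01 and 5.17 RPKM.

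By stage, the genotype comparison called different numbers of members in different directions. In ESCs 3 were called, all lower in slow/slow cells (Gata6, Hnf4a and Dab2), where 40.4% of all tested genes were called, 18.5% higher and 21.9% lower. In NPCs 4 were called, all higher (Dab2, Ttr, Apoa1 and Afp), where 56.7% were called, 29.3% higher and 27.4% lower. When only NPC samples were fitted, Gata6 (-0.51, adjusted p = 7.29e-05) and Foxa1 (-0.39, adjusted p = 0.00394) were also called, both lower, and Foxa1 was called with the replicate number as a block too (-0.37, adjusted p = 0.0436). Over all genes these fits called 11600 and 10367 genes, against 9423 in the model of all samples. In the model of all samples the share of members called was below the background at both stages. In neurons 10 of 10 were called, 8 higher and 2 lower, where 51.9% of all genes were called, 23.4% higher and 28.4% lower. Fits that left out 1 neuron sample called 7 to 9 members. The median log2 change of the members was -1.01 in ESCs, 0.24 in NPCs and 1.00 in neurons, against -0.02, 0.01 and -0.06 over all genes. Of the 10 calls in neurons, 6 were of at least 2-fold (Sox17, Hnf4a, Ttr, Apoa1, Afp and Foxa2). The genotype difference in neurons differed from that in NPCs for 6 members, all towards higher levels in slow/slow neurons (Gata6, Sox17, Hnf4a, Ttr, Apoa1 and Afp), where 55.1% of all genes were called, 24.7% higher and 30.4% lower. Between NPCs and ESCs the interaction was called for 2 members (Hnf4a and Dab2), where 24.6% of genes were called, 13.6% higher and 11% lower, and between PSA-NCAM+ cells and NPCs for 1 (Dab2, -0.84 ± 0.22, adjusted p = 0.0142), where 14.6% were called, 7.52% higher and 7.04% lower. The latter call was lost without slow/slow NPC replicate 1 (-0.68, adjusted p = 0.0571). These comparisons share the NPC samples. For Gata4, Dab2, Foxa1 and Foxa2 the interaction of neurons and NPCs was not called. From NPCs to neurons 2 members were higher and 7 lower in WT cells, where 80.2% of genes were called, 41.4% higher and 38.9% lower. In slow/slow cells 4 were higher and 5 lower, where 75% were called, 38.4% higher and 36.6% lower.

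**Figure D2:**
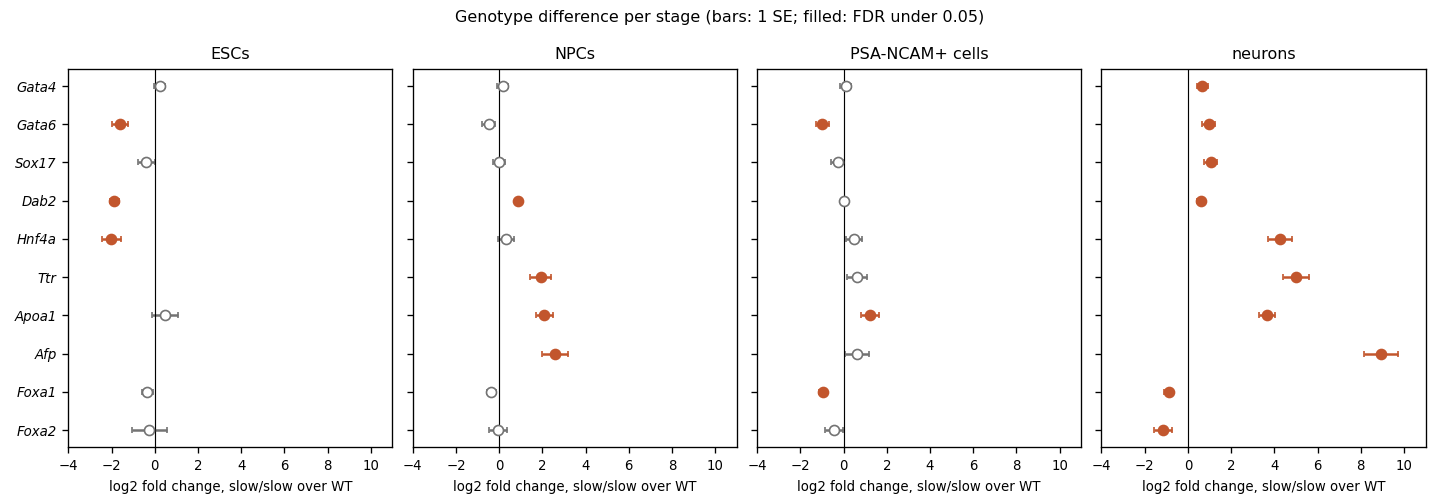
Log2 fold change of each gene in slow/slow over WT cells (horizontal axis) with 1 SE, in a panel per stage, filled where the adjusted p was under 0.05; Afp and Ttr are left out in ESCs, where both genotypes were at or under 3 counts. The filled points lie left of 0 in ESCs (3 genes), right of it in NPCs (4 genes), and on both sides in PSA-NCAM+ cells and neurons, where the fitted value of Afp, at the floor in WT, is 8.92.

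PSA-NCAM+ cells had been purified from the day 10 cultures, and they still held the endoderm genes. Dab2 had 150, 173 and 155 CPM in WT against 175, 139 and 176 CPM in slow/slow PSA-NCAM+ cells, and Gata4 50.2, 40.5 and 37.9 CPM and 62.9, 30.5 and 45.6 CPM. Against NPCs 1 member was called in WT cells (Ttr, 1.34 ± 0.49, adjusted p = 0.0376), where 41.3% of genes were called, 21.8% higher and 19.5% lower, and 3 in slow/slow cells, all lower (Sox17 -0.96 ± 0.29, adjusted p = 0.0114, Foxa1 -0.77 ± 0.20, adjusted p = 0.00524, and Dab2 -0.92 ± 0.16, adjusted p = 0.000111), where 42.3% were called, 22.5% higher and 19.8% lower. These counts changed with the first replicate of both genotypes. For Foxa2 it had 20.6 CPM in WT against 19.5 CPM in slow/slow cells, where the other two replicates had 11.3 and 7.23 CPM and 4.54 and 5.08 CPM. Hnf4a likewise had 6.40 and 10.0 CPM there, against 2.38 to 3.76 CPM in the other 4 samples. Without this pair of libraries, 9 members were lower in slow/slow PSA-NCAM+ cells than in slow/slow NPCs, all but Ttr, where 52.4% of genes were called. In WT cells 3 were then lower (Gata4, Sox17 and Hnf4a) and the Ttr call was lost (0.64 ± 0.39, adjusted p = 0.176), where 54.1% were called. The interaction was then called for 4 members, all lower (Gata6, Foxa1, Foxa2 and Dab2), where 31.1% were called. With the replicate number as a block, 5 members were lower in slow/slow PSA-NCAM+ cells than in NPCs (Gata4, Gata6, Sox17, Foxa1 and Dab2), where 41.2% were called, 1 in WT cells (Sox17, -0.72 ± 0.24, adjusted p = 0.0243), where 40.4% were called, and 2 in the interaction (Ttr and Dab2), where 21.3% were called.

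Between the genotypes, PSA-NCAM+ cells differed in 3 members, where 56.7% of genes were called, 28.6% higher and 28.1% lower. Gata6 had 47.6, 43.0 and 32.6 CPM in WT against 31.8, 13.3 and 17.1 CPM in slow/slow cells (-0.99 ± 0.30, adjusted p = 0.00819). Foxa1 had 2.98, 4.12 and 4.64 CPM in WT against 1.39, 2.02 and 2.61 CPM in slow/slow cells (-0.95 ± 0.20, adjusted p = 0.000534). Apoa1 had 0.278, 0.097 and 0.098 CPM in WT against 0.449, 0.320 and 0.415 CPM in slow/slow cells (1.22 ± 0.41, adjusted p = 0.0153). Of the members not called, Afp had 0.636, 0.058 and 0.081 CPM in WT against 0.470, 0.363 and 0.480 CPM in slow/slow cells, Ttr 2.37, 0.914 and 0.798 CPM against 3.47, 0.992 and 2.00 CPM, and Sox17 16.9, 10.2 and 10.7 CPM against 16.01, 5.11 and 10.3 CPM. Their first WT replicate was the highest WT sample each time, and the genotypes overlapped. In each of the 3 called genes the genotypes did not overlap, and 2 were lower and 1 higher in slow/slow cells. Over all tested genes the samples numbered alike deviated together (correlations 0.40 to 0.54), though not in every replicate of these 3 genes. With the replicate number as a block, 5 members were called, where 62.7% of genes were called, the same 3 and also Foxa2 (-0.62 ± 0.18, adjusted p = 0.0099) and Ttr (0.67 ± 0.24, adjusted p = 0.0281). Without the first replicate of both genotypes 5 were called, Gata6 (-1.31 ± 0.23), Foxa1 (-0.92 ± 0.15) and Foxa2 (-0.94 ± 0.17) lower and Apoa1 (1.89 ± 0.50) and Afp (2.54 ± 0.56) higher, where 68% were called. When only PSA-NCAM+ samples were fitted, 0 members were called, where 3641 genes were called against 9424 in the model of all samples. In that smaller fit the adjusted p was 0.0821 for Gata6, 0.0681 for Foxa1 and 0.113 for Apoa1. Without WT replicate 1 the number of members called was 6, where 8672 genes were called. Without slow/slow replicate 1 it was 5, where 11583 genes were called. The Gata6 call was lost without slow/slow replicate 2 and the Apoa1 call without WT replicate 2 or 3.

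Dab2 also differed in how its RNA was spliced. PSI (percent spliced in) is the percent of junction reads that include an exon. An exon of 654 bases at chr15:6379296-6379949 (mm9, the build of the splicing table) was included at 45.5, 36.1 and 45.7% in WT NPCs and at 9.04, 8.19 and 14.0% in slow/slow NPCs. The genotypes were far apart, a difference of -32.0 points between means of 42.4% ± 5.47 and 10.4% ± 3.16 (SD, n = 3), with 368 to 1284 reads per sample. The exact two-sided permutation test gave p = 0.1, the smallest that 3 against 3 samples allow. In PSA-NCAM+ cells inclusion was 58.4, 44.5 and 49.1% in WT and 48.8, 38.7 and 25.1% in slow/slow cells, a difference of -13.1 points within overlapping ranges (exact permutation p = 0.2). In neurons, with 31 to 110 reads, it was 82.4, 77.4 and 78.0% in WT and 81.8, 80.0 and 67.4% in slow/slow cells (-2.81 points, exact permutation p = 0.8). Inclusion thus was lowest in slow/slow NPCs, where the Dab2 level was highest, and highest in neurons, where the level was low. A neighbouring exon of 63 bases (chr15:6374635-6374697, mm9) was included at 80.4% ± 1.66 in WT and 89.5% ± 2.27 in slow/slow NPCs, a difference of 9.13 points, under the threshold of 10 (exact permutation p = 0.1). The 654-base exon was the only event of a member gene over 10 points, of 22 covered Dab2 events, 9 of Gata4, 8 of Gata6, 1 of Sox17 and 1 of Foxa2 in NPCs. Over all genes, 2157 of 157054 events covered in NPCs (1.37%) and 1149 of 163368 in PSA-NCAM+ cells (0.703%) had means over 10 points apart. Hnf4a, Afp and Apoa1 had 0 events covered in all 6 samples of any stage.

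**Figure D3:**
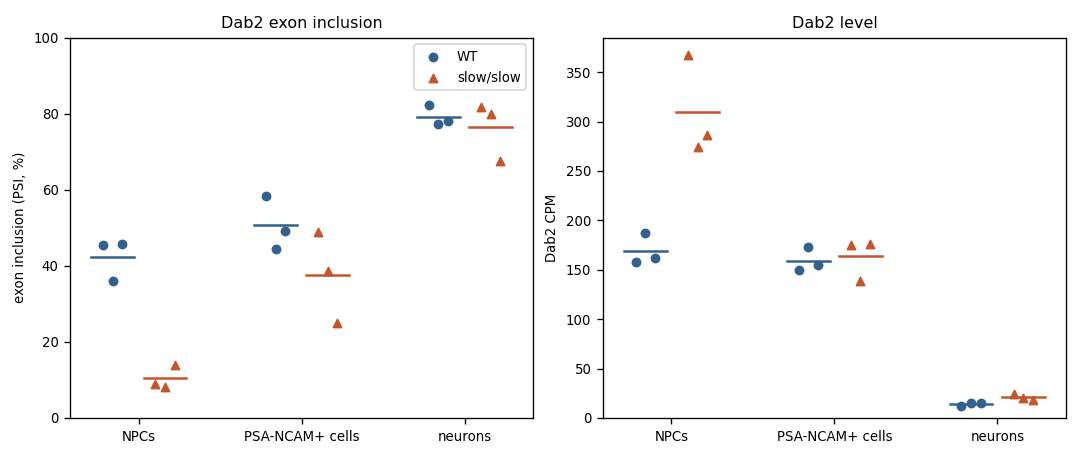
Inclusion of the 654-base Dab2 exon in percent (left) and Dab2 CPM (right) in each sample of NPCs, PSA-NCAM+ cells and neurons, WT as blue circles and slow/slow as orange triangles, with a line at the mean. Slow/slow NPCs show 8.19 to 14.0% inclusion at 275 to 367 CPM, and WT NPCs 36.1 to 45.7% at 158 to 187 CPM.

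The members fell into blocks of like pattern over the 24 samples, given as Pearson r of log2(CPM + 0.5), a description of points that share stages and genotypes. Afp and Apoa1 had r = 0.98. Sox17 and Dab2, Gata6 and Dab2, and Gata6 and Sox17 each had r = 0.96, and Gata4 had 0.92 with Gata6. Foxa1 and Foxa2 had r = 0.87, while Foxa1 and Hnf4a had -0.44, the lowest of all pairs. Of all tested genes, those most like Gata4 were Slc44a3, Lama1 (a laminin chain of the basement membrane) and Wt1 (r = 0.98 to 0.97), and those most like Gata6 were Hkdc1, Foxq1 and Gadd45a (0.98 to 0.97). Sox17 was closest to Psmb9, Hkdc1 and Sox7 (0.98), and Dab2 to Col18a1, Tor3a and Foxq1 (0.97). Hnf4a was closest to Grhl2, an epithelial factor, Cyp27a1 and Fes (0.95 to 0.94). Afp was closest to Apoa1 (0.98), Cldn11 and Cd33 (0.96), Apoa1 to Afp, Skor2 and Cd33 (0.98 to 0.96), and Ttr to Sat2, the plasma retinol carrier Rbp4 and Dnajc1 (0.93 to 0.91). Foxa1 was closest to Dagla, Sv2a and Rtn4r (0.98) and Foxa2 to Zfp467, Spns2 and Letm2 (0.98).

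**Figure D4:**
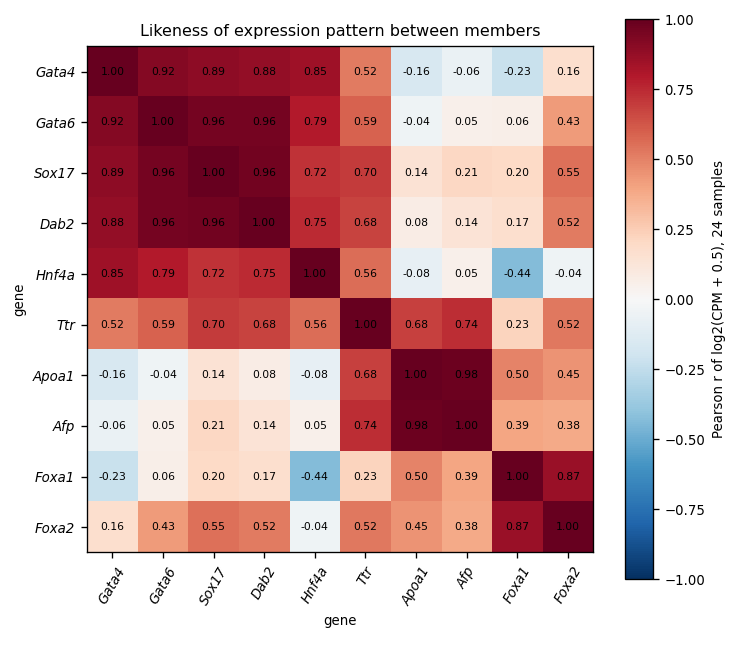
Pearson r between the 10 genes (both axes) of log2(CPM + 0.5) over 24 samples, from blue (-1) to red (1). Gata4, Gata6, Sox17 and Dab2 form a block at 0.88 or more, Afp and Apoa1 a pair at 0.98, and Foxa1 and Foxa2 a pair at 0.87.

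Other endoderm genes were read from lists of the visceral, parietal and gut endoderm. Over all tested genes, 29.3% were called higher and 27.4% lower in slow/slow NPCs, and 23.4% and 28.4% in slow/slow neurons. The shares were 28.6% higher and 28.1% lower in PSA-NCAM+ cells, and 18.5% and 21.9% in ESCs. Of 10 visceral endoderm genes, 6 were higher and 0 lower in slow/slow NPCs. Among them were the endocytic receptor Cubn (141 CPM ± 23.6 in WT against 473 CPM ± 88.4, SD, n = 3; log2 change 1.74 ± 0.42, adjusted p = 0.00144) and the lipoprotein gene Apob (1.02 CPM ± 0.0432 in WT against 12.7 CPM ± 1.15; log2 change 3.64 ± 0.25, adjusted p = 8.8e-10). In neurons 6 were higher and 1 lower. The apolipoproteins Apoc2 and Apoa4 had 0 counts in all WT neurons and 0.655 CPM ± 0.382 and 0.391 CPM ± 0.0670 in slow/slow neurons, at least 15.98-fold and 9.54-fold higher against 3 counts per library. The receptor Lrp2 was lower (86.2 CPM ± 5.90 in WT against 23.1 CPM ± 5.84; log2 change -1.90 ± 0.16, adjusted p = 9.91e-09). The median log2 change of the list was 1.22 in NPCs and 2.24 in neurons, the latter also with Apoc2 and Apoa4 at their bound. Lrp2 made up most of the list's RNA in WT neurons, so its summed level was 83.9 to 96.4 CPM in WT against 38.5 to 56.0 CPM in slow/slow neurons, opposite in direction to the median. Of 12 primitive and parietal endoderm genes, 2 were higher and 1 lower in NPCs and 6 higher and 2 lower in neurons. They were led by thrombomodulin (Thbd, 1.21 CPM ± 0.201 in WT against 10.1 CPM ± 3.54; log2 change 3.05 ± 0.59, adjusted p = 0.000209) and Sox7, a relative of Sox17 (1.06 CPM ± 0.150 in WT against 5.32 CPM ± 2.70; log2 change 2.34 ± 0.31, adjusted p = 2.77e-06). In PSA-NCAM+ cells 3 visceral genes were higher and 1 lower, and 1 parietal gene was higher. These PSA-NCAM+ counts are from the fit of all samples and were not repeated without the first replicate of both genotypes. In ESCs 2 genes of each list were lower and 0 higher.

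Later endoderm showed counts in both directions, beside 29.3% of all genes higher and 27.4% lower in NPCs and 23.4% and 28.4% in neurons. Of 8 definitive and gut endoderm genes, 3 were higher and 4 lower in slow/slow NPCs and 4 higher and 3 lower in neurons. Among the 3 lower in neurons was the hindgut factor Cdx2 (50.7 CPM ± 3.38 in WT against 2.65 CPM ± 0.629, log2 change -4.27 ± 0.19, adjusted p = 1.96e-12). The summed level of the list nevertheless was 103.7 to 115.2 CPM in WT and 115.9 to 122.1 CPM in slow/slow neurons. Of 7 hepatic transcription factors, 2 were higher and 3 lower in NPCs and 4 higher and 0 lower in neurons, where Nr5a2 stood at 0.365 CPM ± 0.0653 in WT against 1.64 CPM ± 0.321 (log2 change 2.14 ± 0.19, adjusted p = 1.55e-08). Of 8 liver plasma protein genes 6 could be tested, and 3 were higher and 0 lower in slow/slow neurons and 0 higher and 2 lower in NPCs. Albumin (Alb), the most abundant product of liver cells, was at 0.0571 CPM ± 0.0173 in WT against 0.246 CPM ± 0.110 in slow/slow neurons. Fibrinogen beta chain (Fgb) was at 0.0188 CPM ± 0.0108 in WT against 1.59 CPM ± 0.984.

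Because Foxa1, Foxa2 and Ttr are also neural tube or choroid plexus genes, these tissues were read beside them. The shares over all genes were 29.3% higher and 27.4% lower in NPCs, and 23.4% and 28.4% in neurons. Of 7 floor plate genes 5 were lower and 2 higher in slow/slow neurons, with a median of -1.47. The secreted signal Shh stood at 153 CPM ± 7.56 in WT against 28.9 CPM ± 1.67 (log2 change -2.41 ± 0.27, adjusted p = 4.48e-07) and Spon1 at 378 CPM ± 39.7 in WT against 125 CPM ± 15.6 (log2 change -1.59 ± 0.16, adjusted p = 1.16e-07), while Corin (log2 change 3.60 ± 0.27, adjusted p = 2.38e-09) and Lmx1a (log2 change 2.09 ± 0.37, adjusted p = 9.74e-05) were higher. The floor plate list had a summed level of 1295 to 1477 CPM in WT against 433 to 527 CPM in slow/slow neurons, lower where Foxa1 and Foxa2 were lower, and its part in their differences was not tested. In NPCs 3 floor plate genes were higher and 0 lower, and the summed level was 14.4 to 16.7 CPM in WT against 71.6 to 87.05 CPM in slow/slow cells, where neither Foxa1 (-0.37) nor Foxa2 (-0.04) was called in the model of all samples. Of 9 tested choroid plexus genes 5 were higher and 2 lower in slow/slow neurons and 4 higher and 1 lower in NPCs. In neurons they were led by the water channel Aqp1 (0.513 CPM ± 0.0464 in WT against 6.98 CPM ± 5.36) and Sostdc1 (0.366 CPM ± 0.159 in WT against 2.81 CPM ± 0.508). The summed level of the choroid plexus list was 18.5 to 22.2 CPM in WT against 42.1 to 54.4 CPM in slow/slow neurons, higher where Ttr was higher, and its part in the Ttr difference was not tested.

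**Figure D5:**
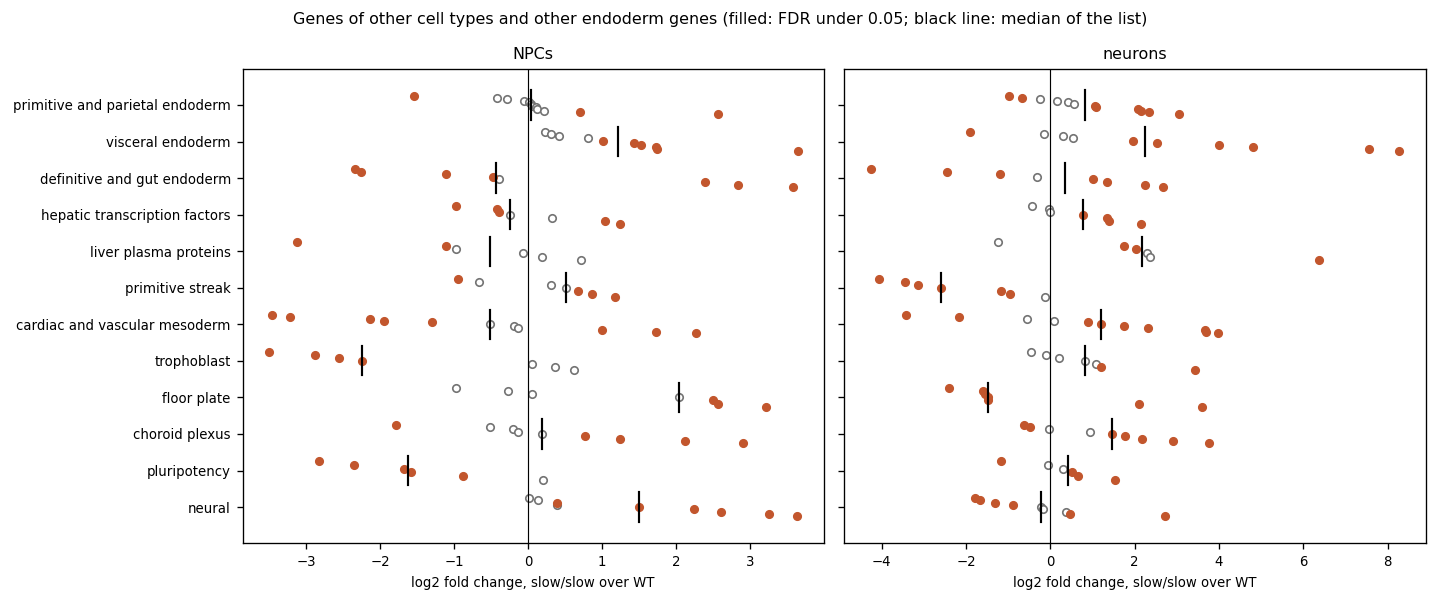
Log2 fold change in slow/slow over WT cells (horizontal axis) of each tested gene of 12 other marker lists (rows) in NPCs (left) and neurons (right), filled where the adjusted p was under 0.05, with a black line at the median of each list. Visceral endoderm lies to the right at both stages (medians 1.22 and 2.24), and the floor plate and primitive streak lists lie to the left in neurons (medians -1.47 and -2.59).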

How the data were processed

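RNA sequencing of 24 samples was analysed, 3 replicates of each of 8 groups. For ESCs, NPCs and neurons the study describes the replicates as 3 independent differentiation experiments. Its methods do not mention the PSA-NCAM+ cells. Per the labels, libraries were poly(A)-selected and made with a stranded kit, and base calls came from bcl2fastq 2.17.1.14. Per the study's methods, reads were mapped to mm9 and splicing was read with vast-tools version 1. Deposited by the authors were raw counts of reads for every gene, RPKM values averaged by them within each group, and PSI values in percent with read support per event. A deposited table of the authors' own splicing calls was not used, and 0 per-sample columns went unused. Use of the strand in counting is not given in the sources used here. Of 22667 listed genes 1114 had no value and 21553 had counts. An additional row with the symbol Dab2 held 0 counts in every sample and was left out.

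Counts were tested in edgeR 4.0.16 (R 4.3.3) with filterByExpr, which left 16627 genes, TMM scaling and the quasi-likelihood F test in a model of 8 groups over all samples. There were 13 contrasts (4 of genotype, 6 of stage, 3 interactions), each adjusted by Benjamini-Hochberg over all genes, with a threshold of 0.05, and SE was taken from the F statistic. Against a group at 0 counts a fold was set against 3 counts per library. With 1 to 3 counts a ratio of summed counts with an exact 95% interval is given. Splicing events other than introns needed vast-tools coverage of at least LOW. Exons, except those typed as microexons, also needed an accepted junction balance. Introns instead needed 15 reads and a junction balance score of at least 0.05. These limits had to hold in all 6 samples of a stage. Events were described where means differed by over 10 points. Same-numbered WT and slow/slow PSA-NCAM+ samples deviated together (correlations 0.40 to 0.54 in 3 of 3 pairs), a pairing that comes from the data, so a replicate block is given there. All 10 members are named, the 3 tested genes most like each by Pearson r over 24 samples, and from each of 12 other lists, per genotype comparison, at most the 2 called genes with the largest rise and the 2 with the largest fall, besides the pluripotency and neural genes. Of the 113 list genes 112 were matched. The members and lists were chosen with earlier results of these data known. Alternatives were another scaling, no filter, DESeq2 1.42.0, fewer samples, a 2-fold minimum, the block and leaving out each sample in turn. Positions are from GENCODE M21, and promoter windows from RefSeq were matched for 6 of 10 members.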

Additional observations from a re-analysis of the deposited data

Results flagged for a closer look

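The genotype difference itself differed between stages for 7 of the 10 members, in 9 tests of the interaction in edgeR. Of all tested genes, 24.6% were called in the interaction of NPCs and ESCs and 14.6% in that of PSA-NCAM+ cells and NPCs. In the interaction of neurons and NPCs 55.1% were called, beside 6 of the 10 members. Between NPCs and ESCs it differed by 2.33 on the log2 scale for Hnf4a and 2.75 for Dab2, both towards slow/slow NPCs. Between PSA-NCAM+ cells and NPCs it differed by -0.84 for Dab2, towards NPCs. Between neurons and NPCs it differed by 1.45 for Gata6, 1.06 for Sox17, 3.94 for Hnf4a, 6.35 for Afp, 1.58 for Apoa1 and 3.10 for Ttr, all towards slow/slow neurons. The Sox17 value was called in 4 of the 12 fits that left out a sample (0.84 to 1.21), and the Apoa1 value was not called without WT NPC replicate 3 or slow/slow neuron replicate 3 (1.07 to 1.79 over the 12 fits).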

How the results depend on the processing

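Leaving out 1 sample at a time, the genotype comparison called 3 members in every fit of ESCs and 4 in every fit of NPCs, 2 to 6 in PSA-NCAM+ cells and 7 to 9 in neurons. Over all genes these fits called 5720 to 5906 in ESCs, against 6720 with all samples, and 8363 to 8635 in NPCs, against 9423. In PSA-NCAM+ cells these fits called 8213 to 11583 of all genes, against 9424 with all samples. PSA-NCAM+ cells against NPCs gave 0 to 1 in WT cells (0 without any WT NPC replicate 1, 2 or 3) and 2 to 6 in slow/slow cells. The interaction gave 0 to 3 between PSA-NCAM+ cells and NPCs. Log2 changes that turned sign in such fits, none of them called with all samples, were Apoa1 (-0.0192 to 1.141) and Foxa2 (-0.63 to 0.14) in ESCs, Sox17 (-0.14 to 0.0635) and Foxa2 (-0.15 to 0.0319) in NPCs, and in PSA-NCAM+ cells Gata4 (-0.15 to 0.37), Sox17 (-0.69 to 0.0902), Foxa2 (-1.42 to 0.0564), Hnf4a (-0.19 to 1.02) and Dab2 (-0.00445 to 0.17).

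With only the samples of the stages compared, 0 members were called between genotypes in PSA-NCAM+ cells, 0 between WT PSA-NCAM+ cells and NPCs, and 4 in the interaction of NPCs and ESCs. Between genotypes in PSA-NCAM+ cells 3641 genes were then called, against 9424 in the model of all samples. That fit also added calls between genotypes for Gata4 in ESCs (0.24, adjusted p = 0.0299) and for Gata6 (-0.51, adjusted p = 7.29e-05) and Foxa1 (-0.39, adjusted p = 0.00394) in NPCs, and ended the Sox17 call in slow/slow PSA-NCAM+ cells against NPCs (-0.93, adjusted p = 0.0639). With the replicate block the counts were 5 between genotypes in PSA-NCAM+ cells, 5 between slow/slow PSA-NCAM+ cells and NPCs, 4 in the interaction of NPCs and ESCs and 2 in that of PSA-NCAM+ cells and NPCs. Outside the genotype comparison of PSA-NCAM+ cells the numbers are only shared, as at least 1 pair correlated at 0.1 or less. The block added Foxa1 in NPCs (-0.37, adjusted p = 0.0436) and also ended the Gata4 call in neurons (0.56, adjusted p = 0.0602) and the Ttr call in WT PSA-NCAM+ cells (1.197, adjusted p = 0.0648). A 2-fold minimum left 6 members in neurons, 1 between genotypes in PSA-NCAM+ cells, and 0 in slow/slow PSA-NCAM+ cells against NPCs and in the interaction of these stages. Upper-quartile scaling gave 2 members for WT PSA-NCAM+ cells against NPCs, moved the Dab2 change between genotypes in PSA-NCAM+ cells to -0.0258, moved the median of pluripotency genes in neurons to 0.55, and moved the median of all genes from 0.04 to -0.23 in WT neurons against NPCs. Leaving out PSA-NCAM+ replicate 1 of both genotypes was chosen after seeing the data. It gave 5 members between genotypes, 3 and 9 for WT and slow/slow cells against NPCs and 4 in the interaction, with Gata4 at -0.0402 and Dab2 at -0.0570 between genotypes. The cause of these shifts was not tested. Over settings other than leaving out 1 sample, 586 of 616 values kept their direction and side of the threshold.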

Other observations

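Genes of other non-neural lineages were read from the same fits. As background, 29.3% of all tested genes were called higher and 27.4% lower in slow/slow than in WT NPCs. For PSA-NCAM+ cells the corresponding values were 28.6% and 28.1%, while neurons had 23.4% and 28.4%. Of 7 trophoblast genes, 4 were lower and 0 higher in slow/slow NPCs and 6 lower and 0 higher in slow/slow PSA-NCAM+ cells. The latter count was not repeated without the first PSA-NCAM+ replicate of both genotypes. In NPCs the homeobox gene Esx1 was at 61.8 CPM ± 5.16 in WT against 5.43 CPM ± 0.699 in slow/slow cells (SD, n = 3; log2 change -3.50 ± 0.23, adjusted p = 3.58e-10) and the keratin Krt7 at 103 CPM ± 5.30 in WT against 14.0 CPM ± 2.58 (log2 change -2.88 ± 0.63, adjusted p = 0.000674). In neurons 2 of these genes were higher and 0 lower. Of 7 primitive streak genes 6 were lower and 0 higher in slow/slow neurons, with brachyury (T) at 76.8 CPM ± 9.87 in WT against 6.97 CPM ± 0.591 (log2 change -3.46 ± 0.19, adjusted p = 4.3e-11), and 3 were higher and 1 lower in NPCs. Of 11 cardiac and vascular genes 3 were higher and 5 lower in slow/slow NPCs, where Hand1 was at 41.8 CPM ± 2.38 in WT against 3.77 CPM ± 0.602 (log2 change -3.46 ± 0.51, adjusted p = 1.1e-05). In neurons 7 were higher and 2 lower, and the endothelial gene Pecam1 was at 1.55 CPM ± 0.136 in WT against 24.4 CPM ± 2.36 (log2 change 3.97 ± 0.15, adjusted p = 2.3e-13).

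Of the stage markers, 5 of 6 pluripotency genes were lower and 0 higher in slow/slow NPCs, with Esrrb at 478 CPM ± 26.1 in WT against 93.1 CPM ± 10.7 (log2 change -2.36 ± 0.13, adjusted p = 5.09e-11), and 6 of 9 neural genes were higher and 0 lower, with Pax6 at 4.30 CPM ± 0.297 in WT against 40.9 CPM ± 3.96 (log2 change 3.25 ± 0.26, adjusted p = 4.44e-09). In neurons 3 pluripotency genes were higher and 1 lower, and 2 neural genes higher and 4 lower. The shares over all genes were 29.3% higher and 27.4% lower in NPCs, and 23.4% and 28.4% in neurons.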
